A study of Mus musculus with 10 samples.

Results

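Genes of the major histocompatibility complex (MHC) and genes of the interferon response were followed across 10 oligonucleotide arrays of mouse hepatocyte RNA. Members were the probe sets whose 1 annotated symbol begins with H2-, Ifi, Ifit, Oas, or Irf, Gbp or Stat and a digit, or is Tap1, Tap2, Tapbp, B2m, Cd74, Isg15, Mx1 or Mx2. There were 91 of them among 12488 probe sets, for 72 of the 8252 genes with a symbol of their own: 31 probe sets of class I genes, 12 of class II genes, 45 of interferon genes and 3 of other genes of the H2 region. A rule on symbols also takes in genes with other main roles, such as Stat6, which relays interleukin-4 signals, and Irf2bp1, a partner of the factor IRF2. The study asked how hepatocytes respond to hypoxia with and without HIF-1alpha, a transcription factor subunit that builds up when oxygen is low. Its 4 groups were hypoxic cells labelled HIF-1alpha null (3 arrays), hypoxic adeno-treated wild-type cells (3 arrays), normoxic adeno-treated cells (2 arrays) and normoxic untreated cells (2 arrays). The labels do not say which adeno vector was used, whether the null cells also received it, how HIF-1alpha was removed, which genotype the normoxic cells had, how long and how deep the hypoxia was, or from which strain the cells came. There was no normoxic null group, so the null cells could be set only against hypoxic wild-type cells or against normoxic cells of another group. Nothing states that the arrays of a group came from separate cultures or animals, so the p-values measure the spread between these arrays, which may be technical.

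The targeted gene did not check the null label. The Hif1a probe set 98629_f_at read 1689.4, 1140.6 and 910.3 on the arrays labelled null, against 1095.5, 704.3 and 712.5 on the hypoxic wild-type arrays. The second, 98628_f_at, read 1647.1, 1010.5 and 850.0 on the arrays labelled null, against 961.8, 703.2 and 711.2 on the hypoxic wild-type arrays. Both were thus higher in 3 of 3 same-numbered pairs. Neither was called against hypoxic wild type (limma adjusted p = 0.999 for both, and 0.0941 and 0.188 with the replicate block). With the block both were called higher against normoxic adeno-treated cells (limma adjusted p = 0.00343 and 0.015), as were 2.95% of all probe sets. Without the block they were not (0.378 and 0.453). Where a deletion would lie relative to their probes is not stated in the labels. The null group is therefore called "labelled null", and every direction for it rests on that label.

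MHC class I molecules sit on nearly all nucleated cells and show peptides from inside the cell. Their heavy chain, encoded in the mouse by H2-K, H2-D and related genes of the H2 region on chromosome 17, pairs with the light chain beta-2-microglobulin (B2m). TAP1 and TAP2 pump peptides into the endoplasmic reticulum, and tapasin (Tapbp) bridges the pump to the empty molecule. MHC class II molecules are pairs of an alpha and a beta chain that dendritic cells, B cells and macrophages use to show peptides from outside. The invariant chain (Cd74) guards their groove until H2-DM helps to exchange it for a peptide. Interferons signal through STAT proteins and interferon regulatory factors (IRFs), and interferon gamma raises both classes. Hepatocytes normally carry class I and little class II.

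The promoters of the 3 gene groups differ in known sequence elements, and 5 are shown because the results below turn on these genes or on their nearest partners. RefSeq promoter windows (build GRCm38.p6) were matched for 55 of the 72 member genes, as 68 windows, and the 250 bases upstream of each start site were searched on both strands. Capitals mark every match to the core GAAANNGAA of the interferon-stimulated response element, the full element (that core and a further A), the Y box CCAAT, the gamma-activated site TTCNNNGAA and the hypoxia response element cores ACGTG and GCGTG. A full element always holds a core. The windows, printed 5′ to 3′ on the strand of the gene, are chr17:34287824-34288073 (minus strand) and chr17:34305617-34305866 (plus strand) for class II, chr2:122147437-122147686 (plus strand) for class I, and chr7:44997398-44997647 (plus strand) and chr4:156200819-156201068 (minus strand) for the interferon response.
H2-Aa: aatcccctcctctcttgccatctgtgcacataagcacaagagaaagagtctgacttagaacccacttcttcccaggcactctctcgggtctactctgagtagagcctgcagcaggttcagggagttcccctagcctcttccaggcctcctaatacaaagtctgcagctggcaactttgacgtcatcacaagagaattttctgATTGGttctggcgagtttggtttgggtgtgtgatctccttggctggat
H2-Eb1: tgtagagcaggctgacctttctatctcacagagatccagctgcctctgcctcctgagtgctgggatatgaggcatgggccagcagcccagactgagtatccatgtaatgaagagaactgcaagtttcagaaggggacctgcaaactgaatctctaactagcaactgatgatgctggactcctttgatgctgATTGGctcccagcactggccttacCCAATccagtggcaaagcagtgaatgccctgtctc
B2m: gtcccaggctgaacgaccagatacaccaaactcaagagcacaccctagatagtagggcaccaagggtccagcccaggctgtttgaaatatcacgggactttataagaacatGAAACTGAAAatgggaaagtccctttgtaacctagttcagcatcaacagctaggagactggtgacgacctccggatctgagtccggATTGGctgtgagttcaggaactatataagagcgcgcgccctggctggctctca
Irf3: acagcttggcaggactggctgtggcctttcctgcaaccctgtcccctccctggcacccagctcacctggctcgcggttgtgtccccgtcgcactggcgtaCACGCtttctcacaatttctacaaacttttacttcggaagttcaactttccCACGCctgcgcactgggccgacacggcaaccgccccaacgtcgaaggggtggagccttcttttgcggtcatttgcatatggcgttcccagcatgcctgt
Isg15: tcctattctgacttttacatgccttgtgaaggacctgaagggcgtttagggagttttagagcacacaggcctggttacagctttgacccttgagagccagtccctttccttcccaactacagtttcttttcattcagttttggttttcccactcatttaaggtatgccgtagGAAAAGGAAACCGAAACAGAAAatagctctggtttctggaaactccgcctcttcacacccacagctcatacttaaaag
The H2-Aa and H2-Eb1 windows held the Y box, read on the other strand as ATTGG, 48 and 59 bases before the start site, and H2-Eb1 held another 35 bases before it. The B2m window held a response element 139 bases and a Y box 53 bases before the start. Isg15 held 3 overlapping response elements, the first 78 bases before the start, and Irf3 held none but had 2 matches to GCGTG. A match is a description of letters and not a site in use.

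Over all member windows, 17.6% held the interferon-stimulated response element, against 2.98% of all 32851 windows in the table. It was found in 11 of 44 interferon, 1 of 14 class I and 0 of 9 class II windows. The Y box was in 13 of 14 class I windows, 8 of 9 class II windows and 12 of 44 interferon windows, against 33.8% of all windows. The gamma-activated site was in 13.2% of member windows and 7.02% of all windows, and the core alone or within the full element in 19.1% and 7.13%. Pooled over the classes, the hypoxia cores were no more frequent among members. ACGTG was in 7.35% of member windows against 16.6% of all, and GCGTG in 17 of 68 member windows against 28.2% of all. The classes differed for GCGTG, found in 7 of 14 class I, 0 of 9 class II and 9 of 44 interferon windows. Its class I share was thus above that of all windows. ACGTG was in 2 of 14 class I, 0 of 9 class II and 3 of 44 interferon windows. The windows of 1 gene can overlap, so they are not independent.

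Values below are the deposited scaled intensities, on a linear scale, on which only arrays of the same probe set are compared. Log2 changes were fitted to log2 of the intensity plus 4.7, with limma across all 7453 probe sets whose mean over the 10 arrays lay in the upper 60% of the array. A fold change on this scale understates the change of dim probe sets. A probe set is called where its adjusted p (Benjamini-Hochberg over all 7453) is under 0.05. Of the 91 members, 51 were tested (24 class I, 4 class II, 22 interferon and 1 other), and 40 were too dim. The sample numbers were taken to pair the arrays, so the fit with the number as a block is given where it changes a call.

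The arrays carried a strong hepatocyte signal. Albumin (Alb) read 8038.9 to 13761.2 and apolipoprotein A-I (Apoa1) 6458.8 to 10576.1. The hypoxic arrays differed by sample number: summed stellate-cell and fibroblast markers ran over 6050 to 16200 on the arrays labelled null and 6400 to 17500 in hypoxic wild type, against 10300 to 11400 in normoxic adeno-treated and 9860 to 9940 in normoxic untreated cells, and no normoxic array has the number 3. Of the 8 pan-leukocyte probe sets, 5 stayed under the intensity of the filter on every array, and the 3 of Ptprc (CD45), the defining marker, lay between 0.7 and 5.5. Among macrophage markers Adgre1 lay between 3.9 and 20.2 on its 2 probe sets, while Cd14 read 198.7 to 727.2, Cd68 (103016_s_at) 65.9 to 254.1 and Mpeg1 (99071_at) 85.3 to 236.1. The summed pan-leukocyte markers were 195 to 316 on the arrays labelled null, 201 to 303 in hypoxic wild type, 215 to 259 in normoxic adeno-treated and 241 to 247 in normoxic untreated cells.

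Among class I genes, no light or heavy chain was called in limma in any of the 4 comparisons, with or without the block. B2m averaged 3288 ± 129 on the arrays labelled null, 3520 ± 368 in hypoxic wild type (SD, n = 3 each), 3119 ± 209 in normoxic adeno-treated and 3192 ± 396 in normoxic untreated cells (SD, n = 2 each). Of the 3 H2-K1 probe sets, 93120_f_at averaged 2788 ± 199 on the arrays labelled null, 2908 ± 243 in hypoxic wild type, 3035 ± 123 in normoxic adeno-treated and 2617 ± 63.0 in normoxic untreated cells. The second, 97125_f_at, averaged 513 ± 50.1 on the arrays labelled null, 494 ± 62.7 in hypoxic wild type, 453 ± 1.2 in normoxic adeno-treated and 368 ± 55.3 in normoxic untreated cells, and the third, 97700_at, 61.2 ± 24.3 on the arrays labelled null, 60.3 ± 16.9 in hypoxic wild type, 34.1 ± 26.3 in normoxic adeno-treated and 45.6 ± 5.87 in normoxic untreated cells. H2-D1, on 97540_f_at, averaged 2607 ± 205 on the arrays labelled null, 2810 ± 122 in hypoxic wild type, 2809 ± 223 in normoxic adeno-treated and 2411 ± 48.9 in normoxic untreated cells. The ranges of the 2 hypoxic groups overlapped for each of these probe sets, as the plot of class I genes shows. H2-Q10, which encodes a secreted class I molecule made in liver, averaged 3243 ± 503 on the arrays labelled null, 3323 ± 586 in hypoxic wild type, 3947 ± 807 in normoxic adeno-treated and 3375 ± 274 in normoxic untreated cells, and the ranges of all 4 groups overlapped. The class I probe sets carry a limit of their own. Of the 31, 14 bear the suffix f or s, which marks probes shared among similar sequences, so a signal can be split among the H2 genes.

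**Figure D1:**
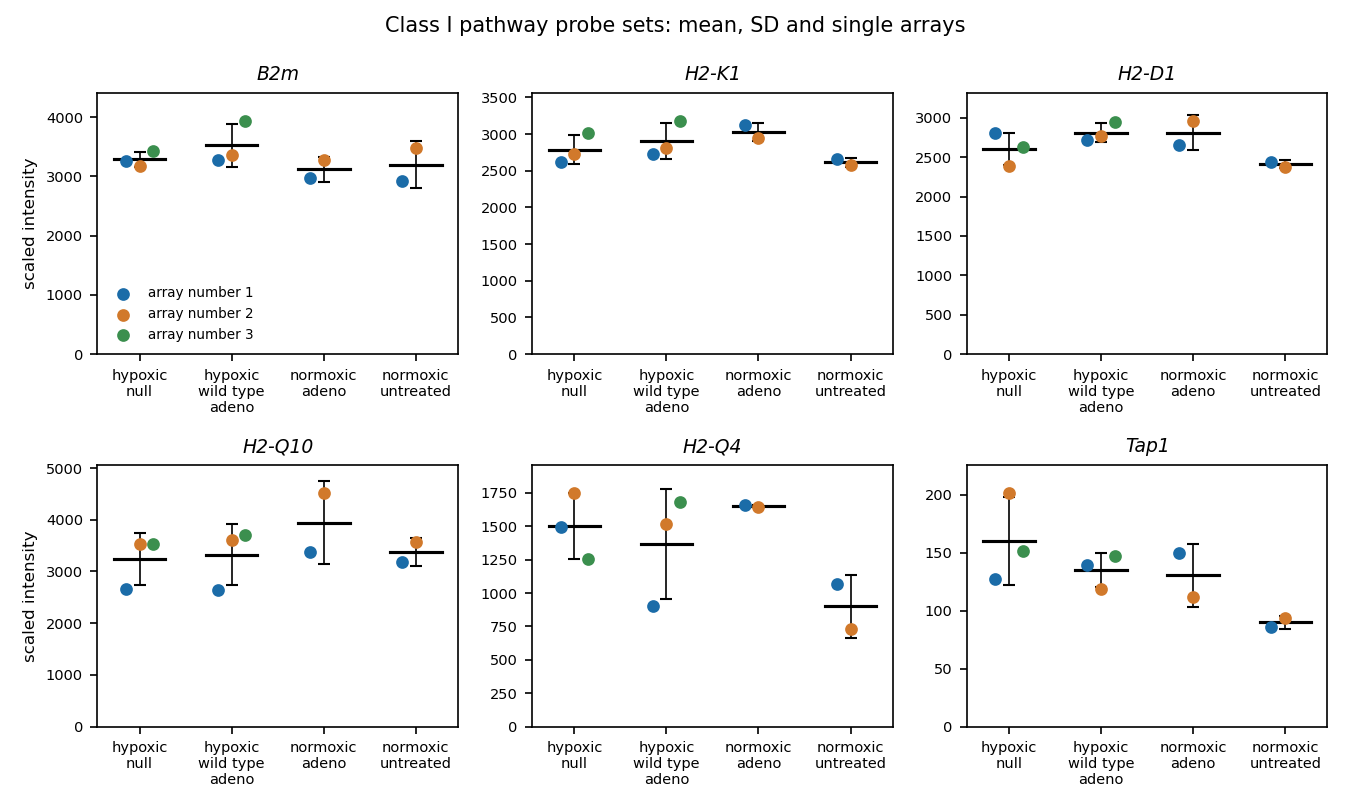
Scaled intensity (linear axis from 0) of 6 class I pathway probe sets on the 10 arrays, by group; points are arrays coloured by sample number, bars are group means and whiskers SD. The probe sets shown for B2m, H2-K1 and H2-D1 lay at similar heights in the 4 groups, and H2-Q4 had its lowest mean in normoxic untreated cells.

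Among the peptide pump genes, the probe sets of 1 gene did not always agree. Tap1 read 127.2, 201.6 and 151.2 on the arrays labelled null, 139.3, 119.0 and 147.6 in hypoxic wild type, 149.7 and 111.4 in normoxic adeno-treated and 86.0 and 93.9 in normoxic untreated cells on 103035_at. Its second probe set, 162278_r_at, read 35.5, 57.5 and 63.8 on the arrays labelled null, 40.3, 33.1 and 31.1 in hypoxic wild type, 32.4 and 35.3 in normoxic adeno-treated and 52.6 and 56.2 in normoxic untreated cells, so the untreated arrays were lowest on the first and near the top on the second. Tap2 was too dim to test and read 8.6 to 14.5 on the arrays labelled null, 11.8 to 31.3 in hypoxic wild type, 29.9 and 25.6 in normoxic adeno-treated and 21.8 and 15.5 in normoxic untreated cells. Tapasin read 441.0, 343.7 and 283.7 on the arrays labelled null, against 387.4, 353.4 and 288.0 in hypoxic wild type, on 100154_at. The other 6 untested class I probe sets lay at 53.7 or below: H2-D4 (101652_i_at), H2-M1, H2-M10.1 (100303_at), H2-M3 (102730_at), H2-Q1 and H2-T24.

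Class II genes were dim. Of 12 probe sets, 8 were not tested, and 6 of these never reached the intensity of the filter on any array. H2-Aa, which encodes the alpha chain that pairs with the product of H2-Ab1, read 7.2, 11.5 and 9.1 on the arrays labelled null, 7.0, 10.2 and 8.8 in hypoxic wild type, 14.9 and 30.6 in normoxic adeno-treated and 10.3 and 12.9 in normoxic untreated cells. The peptide editor chains H2-DMa lay at 36.9 or below on its 2 probe sets, and H2-DMb1 averaged 20.3 ± 5.79 on the arrays labelled null, 40.8 ± 13.3 in hypoxic wild type (SD, n = 3 each), 38.1 ± 5.16 in normoxic adeno-treated and 42.1 ± 30.3 in normoxic untreated cells (SD, n = 2 each). H2-Ob, a beta chain of the molecule that restrains the peptide editor, read 26.7, 15.8 and 4.5 on the arrays labelled null, 29.1, 34.0 and 29.9 in hypoxic wild type, 5.4 and 4.5 in normoxic adeno-treated and 17.0 and 5.2 in normoxic untreated cells. Its alpha chain partner H2-Oa read 10.5, 18.7 and 24.1 on the arrays labelled null, 30.6, 35.3 and 25.4 in hypoxic wild type, 23.2 and 14.4 in normoxic adeno-treated and 42.2 and 28.6 in normoxic untreated cells. H2-Eb2 lay between 2.7 and 17.4, and H2-Ea averaged 14.9 ± 8.55 on the arrays labelled null (SD, n = 3) and lay at 14.6 or below in the other groups. Of the 4 tested, H2-Ab1 passed the filter only through the hypoxic wild-type arrays and Cd74 only through those labelled null, so a difference between groups was a condition for their test, and the fit with no filter is given beside it for H2-Ab1.

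Among interferon genes, Ifitm3, a membrane protein that blocks virus entry, read 2384.0, 2487.2 and 2609.2 on the arrays labelled null, against 2309.5, 1919.5 and 2292.6 in hypoxic wild type. Many sensitive reporters of an interferon response were too dim to test. Mx1 read 1.6 to 12.6 over all arrays, Ifit1 2.7 to 9.5, Oas1g 1.6 to 4.7 and Gbp2b 1.3 to 3.1. Ifit3 reached 30.5, Mx2 40.7, Gbp3 51.0 and Irf8 53.4. Isg15, a ubiquitin-like protein made on interferon signalling, was tested and read 191.5, 103.7 and 226.0 on the arrays labelled null, 157.8, 90.2 and 145.4 in hypoxic wild type, 171.1 and 75.7 in normoxic adeno-treated and 115.0 and 46.6 in normoxic untreated cells. The number 2 array was the lowest in each of the 4 groups. Ifng, the gene of interferon gamma, lay between 0.8 and 8.0 and Ifnb1 between 3.8 and 27.9, and none of the 3 interferon ligand probe sets tested was called in any comparison with or without the block.

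The response to hypoxia was read from hypoxic wild-type against normoxic adeno-treated cells. H2-Ab1, the beta chain of the class II molecule I-A, was the only member called, but it had passed the filter only through the hypoxic wild-type arrays, where it was high. It read 98.1, 87.0 and 111.5 in hypoxic wild type, against 27.8 and 27.7 in normoxic adeno-treated cells. All 3 hypoxic arrays lay far above both normoxic ones. The change was 1.67 on the log2 scale (SE 0.27, 95% interval 1.07 to 2.26, 3.18-fold), with a limma adjusted p of 0.0346, and 1.66 with an adjusted p of 0.0194 with the replicate block. With no filter, and so without that selection, the limma adjusted p was 0.0691, and 0.0441 with the block. That is 1 of 51 members called higher, against 0.322% of all probe sets called higher and 0.0% lower, and 1.49% higher with the block. Against all 4 normoxic arrays the change was 1.98 (limma adjusted p = 0.00548). That fit kept the filter and so that selection, and no pooled fit was run without it. It also joins the untreated arrays, at 16.5 and 16.3, to the adeno-treated ones, so hypoxia and adeno treatment are mixed in it. In these bulk samples, a change in the number of cells of a type and a change in RNA per cell cannot be told apart.

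The call for H2-Ab1 depended on the setting more than its size did. Without the block it was lost with no filter, with quantile normalization (limma adjusted p = 0.065), without the number 3 arrays (log2 1.58, adjusted p = 0.15), and without any 1 of the 5 arrays of the comparison, where the log2 change was 1.58 to 1.75. The other class II genes went different ways. H2-Ob and H2-Oa, both too dim for the filter, lay higher on each hypoxic wild-type array than on either normoxic adeno-treated one (log2 1.89 and 0.60, limma adjusted p = 0.322 and 0.812 in the fit with no filter), and so did 1 of the 2 H2-DMa probe sets (93092_at, 0.21). Over all tested probe sets 11.6% did not overlap and were higher. The H2-Ab1 partner H2-Aa lay at 7.0 to 10.2 in hypoxic wild type, against 14.9 and 30.6 in normoxic adeno-treated cells. H2-Eb1, the beta chain of the class II molecule I-E, read 92.4, 108.7 and 112.6 in hypoxic wild type, against 108.8 and 143.0 in normoxic adeno-treated cells (log2 -0.25, interval -0.89 to 0.39). Cd74 read 42.4, 60.9 and 36.2 in hypoxic wild type, against 46.8 and 39.1 in normoxic adeno-treated cells (log2 0.08, interval -0.70 to 0.86), and H2-DMb2, a beta chain of the peptide editor, 66.8, 83.5 and 43.0 in hypoxic wild type, against 72.2 and 86.3 in normoxic adeno-treated cells (-0.32). The ranges overlapped for all 3. Ciita, the gene of the master activator of class II transcription, read 33.0 to 47.0 in hypoxic wild type, against 32.8 and 33.0 in normoxic adeno-treated cells, and 0 of the 7 probe sets tested for class II and class I transcription factors was called, with or without the block.

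**Figure D2:**
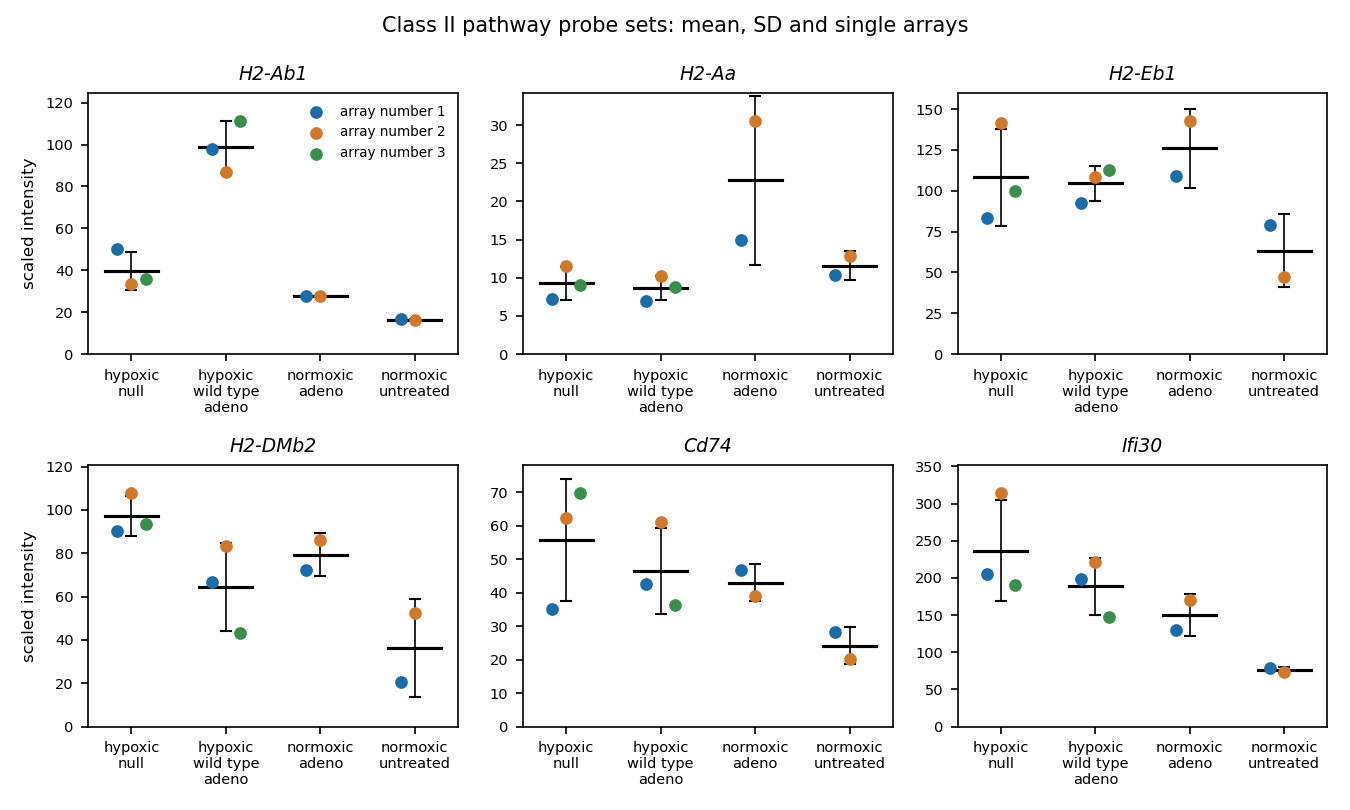
Scaled intensity (linear axis from 0) of 6 class II pathway probe sets on the 10 arrays, by group; points are arrays coloured by sample number, bars are group means and whiskers SD. H2-Ab1 stands at 87.0 to 111.5 on the hypoxic wild-type arrays and at 50.1 or below elsewhere, while its partner H2-Aa is at 30.6 or below in every group.

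Markers of class II bearing cells are given beside this result. B-cell markers (6 probe sets tested) had a median log2 change of 0.18 and summed to 586 to 696 in hypoxic wild type, against 564 to 644 in normoxic adeno-treated cells. Dendritic-cell markers (4 tested) had a median of -0.01, with sums of 536 to 607 in hypoxic wild type, against 599 to 606 in normoxic adeno-treated cells. Macrophage markers (7 tested) had a median of 0.16, with sums of 1000 to 1640 in hypoxic wild type, against 891 to 1250 in normoxic adeno-treated cells. Of these 3 lists 0 probe sets were called without the block. With it the macrophage marker Cd68 rose (103016_s_at, log2 1.03, limma adjusted p = 0.0449): it read 225.0, 159.0 and 127.5 in hypoxic wild type, against 104.9 and 65.9 in normoxic adeno-treated cells. Of the probe sets in each list, 16 of 23 B-cell, 3 of 7 dendritic-cell and 12 of 23 macrophage probe sets never reached the intensity of the filter. With the block 4 of 13 hepatocyte probe sets tested fell too, against 0.738% of all probe sets called lower. Krt19, 1 of 3 biliary probe sets tested, rose with the block, against 1.49% called higher. Endothelial, stellate-cell, T and natural killer cell and pan-leukocyte lists had 0 calls either way. The part of these cells in the H2-Ab1 result was not tested.

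Class I genes as a group lay at the background of the comparison. Their 24 tested probe sets had a median log2 change of 0.02, with 15 positive and 9 negative, beside -0.02 over all probe sets. None was called in limma, with or without the block, and 0 had an unadjusted p under 0.05 without the block, and with it 1 was higher and 1 lower at that level. B2m was at 0.17 (95% interval -0.16 to 0.50), H2-K1 (93120_f_at) at -0.06 (-0.37 to 0.25) and H2-D1 (97540_f_at) at 0.00 (-0.31 to 0.31), so a 2-fold change lay outside the interval of each. That held for 20 of the 24. The third H2-K1 probe set, 97700_at, had the largest change of the class (log2 0.9). It read 61.2, 76.8 and 43.0 in hypoxic wild type, against 52.7 and 15.5 in normoxic adeno-treated cells, with overlap. So the narrow interval for H2-K1 is that of 93120_f_at alone. The groups did not overlap for H2-Bl (679 ± 169 in hypoxic wild type against 511 ± 62.7 in normoxic adeno-treated cells), H2-M9 (151 ± 8.30 in hypoxic wild type against 122 ± 24.2 in normoxic adeno-treated cells) and B2m, all higher in hypoxic wild type, and for Tapbp (100154_at, 343 ± 50.5 in hypoxic wild type against 412 ± 17.1 in normoxic adeno-treated cells) and H2-K2 (2445 ± 165 in hypoxic wild type against 2698 ± 39.0 in normoxic adeno-treated cells), both lower. Over all classes 4 of 51 members did not overlap and were higher, and 6 were lower, against 11.6% and 13.1% of all probe sets, so these counts are near the background.

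Interferon genes had a median of 0.00 over 22 probe sets, 11 of them positive, and 0 were called with or without the block. Without it 2 had an unadjusted p under 0.05, both lower, and over all members 1 was higher and 2 were lower at that level, against 4.47% and 3.46% of all probe sets. Ifi47, an interferon-induced GTPase that acts on vacuoles of intracellular parasites, read 106.4, 74.1 and 80.6 in hypoxic wild type, against 140.2 and 139.9 in normoxic adeno-treated cells (log2 -0.67, SE 0.20, limma adjusted p = 0.367). Irf3, the factor that switches on interferon beta after virus sensing, read 156.1, 119.9 and 133.2 in hypoxic wild type, against 236.0 and 198.9 in normoxic adeno-treated cells (log2 -0.66, SE 0.20, limma adjusted p = 0.367). For both, each hypoxic array lay below each normoxic one, and so it was for Irf7 (162202_f_at, -0.53) and Ifi35 (-0.36). The second Irf7 probe set, 104669_at, did not show this (-0.14), nor did the dim second Irf3 probe set, 162425_f_at, which read 28.5, 14.8 and 35.1 in hypoxic wild type, against 29.5 and 31.0 in normoxic adeno-treated cells. Stat3, which relays interleukin-6 signals, was at 0.33 and -0.03 on its 2 probe sets, Irf1 at -0.36, Irf9 at -0.09, Isg15 at 0.15 and Ifitm3 at 0.03.

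Other genes of the interferon programme, from a list that holds no member, had mostly negative changes. Of 18 probe sets tested (15 genes), 15 were negative, with a median log2 change of -0.35, beside -0.02 over all probe sets, and 0 were called. With the block the median was -0.14 and 2 were called, both lower, against 0.738% of all probe sets. Igtp, a GTPase of the family of Ifi47, read 75.2, 37.5 and 75.7 in hypoxic wild type, against 152.7 and 114.8 in normoxic adeno-treated cells (log2 -1.28 with the block, limma adjusted p = 0.0335, and -1.08 with 0.472 without it). Trim25, a ubiquitin ligase of the RIG-I virus-sensing pathway, read 133.9, 121.4 and 107.3 in hypoxic wild type, against 281.1 and 237.9 in normoxic adeno-treated cells (-1.07, limma adjusted p = 0.0333 with the block and 0.216 without). Irgm1, another GTPase of that family, read 78.5, 29.9 and 41.3 in hypoxic wild type, against 123.1 and 106.3 in normoxic adeno-treated cells (-1.22, limma adjusted p = 0.329, and 0.0629 with the block). On all 3 the hypoxic arrays lay below the normoxic adeno-treated ones. Of the 17 probe sets tested for receptors and signalling, 0 were called with or without the block, and the interferon gamma receptor chain Ifngr1 was at 0.76 (limma adjusted p = 0.545, and 0.0567 with the block). Of the 15 for peptide supply and loading, 0 were called either way (median 0.08), and the immunoproteasome subunits Psmb8 and Psmb9 were at 0.17 and -0.11.

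**Figure D3:**
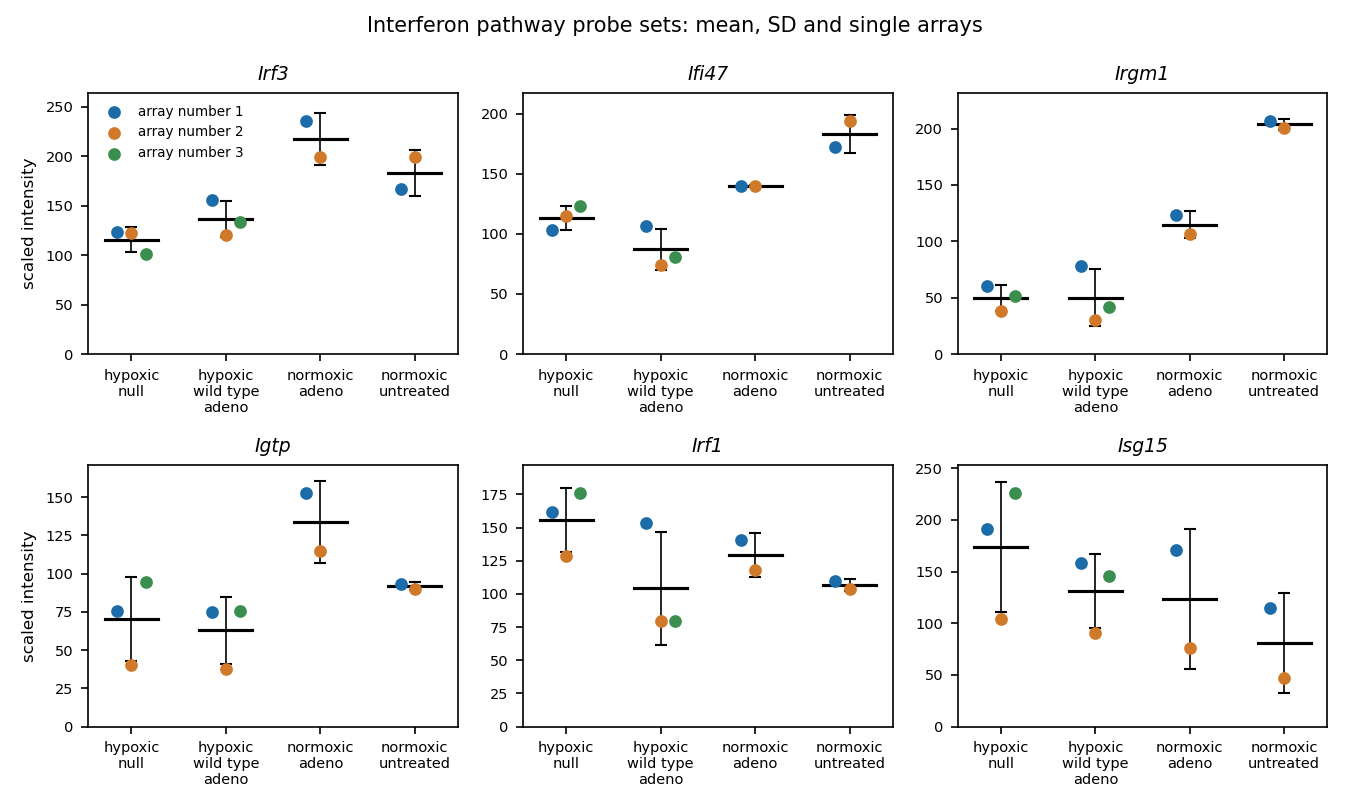
Scaled intensity (linear axis from 0) of 6 interferon pathway probe sets on the 10 arrays, by group; points are arrays coloured by sample number, bars are group means and whiskers SD. Irf3, Irgm1 and Igtp lay lower on all 6 hypoxic arrays than on the 2 normoxic adeno-treated ones, while Isg15 was lowest on the number 2 array of each group.

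The comparison of cells labelled null with wild-type cells under hypoxia is the only one between genotypes. H2-Ab1 had the smallest p among the members and read 50.1, 33.6 and 35.6 on the arrays labelled null, against 98.1, 87.0 and 111.5 in hypoxic wild type. It was lower in 3 of 3 same-numbered pairs, by 0.91 to 1.53 log2 units, and the groups did not overlap. Since the hypoxic wild-type arrays alone had brought it past the filter, that order is a description and no support. The log2 difference was -1.23 (SE 0.24, interval -1.77 to -0.70), and it was not called (limma unadjusted p = 0.00045, adjusted p = 0.342, and 0.0819 with the replicate block; with no filter 0.411, and 0.159 with the block). Leaving out both number 3 arrays gave -1.08 (adjusted p = 0.999, and 0.491 with the block). In limma 0 of 51 members were called, with and without the block, and over all probe sets 0.0% were called without it, and 0.0134% higher and 0.121% lower with it. At an unadjusted p under 0.05, without the block, 1 member was higher and 1 lower, against 1.69% of all probe sets in each direction. Both comparisons use the same hypoxic wild-type arrays, so their values for H2-Ab1 are not independent.

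Among the 8 class II probe sets too dim for the filter, H2-Ob, H2-Oa and H2-DMb1 were also lower in 3 of 3 pairs with no overlap (log2 -0.98, -0.68 and -0.84, limma adjusted p = 1.0 for each with no filter), and the other 5 overlapped. Over all probe sets tested, 2.74% were lower with no overlap, a share that covers no probe set too dim for the filter. The gap was narrow for H2-Oa, at 24.1 on the highest null array against 25.4 on the lowest wild-type one. For H2-DMb1 it was narrow too. The order of these dim probe sets is thus a description and no support. The other 3 tested class II genes were not lower with no overlap. H2-DMb2 read 90.2, 107.8 and 93.6 on the arrays labelled null, against 66.8, 83.5 and 43.0 in hypoxic wild type, the opposite order with no overlap (log2 0.60, SE 0.33, limma adjusted p = 0.999). Cd74 read 35.1, 62.1 and 69.7 on the arrays labelled null, against 42.4, 60.9 and 36.2 in hypoxic wild type (0.22), and H2-Eb1 83.3, 141.3 and 99.9 on the arrays labelled null, against 92.4, 108.7 and 112.6 in hypoxic wild type (0.02). H2-Aa was equally dim in both, at 7.2 to 11.5 on the arrays labelled null, against 7.0 to 10.2 in hypoxic wild type. The summed B-cell markers were 537 to 884 on the arrays labelled null, against 586 to 696 in hypoxic wild type, the dendritic-cell markers 621 to 709 on the arrays labelled null, against 536 to 607 in hypoxic wild type, and the macrophage markers 1040 to 1260 on the arrays labelled null, against 1000 to 1640 in hypoxic wild type. Their part in these values was not tested.

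Class I genes had a median difference of 0.00, with 12 of 24 negative. B2m was at -0.09 (interval -0.39 to 0.20), H2-K1 (93120_f_at) at -0.06 (-0.34 to 0.22), H2-D1 (97540_f_at) at -0.11 (-0.38 to 0.16) and H2-Q10 at -0.03 (-0.45 to 0.39). For 20 of the 24 the interval excluded a 2-fold difference. The widest departures were H2-M10.1 (100305_g_at, -0.86, interval -1.82 to 0.10) and the second Tap1 probe set, 162278_r_at (0.50, -0.09 to 1.08), and in both the groups overlapped.

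Interferon genes had a median of 0.10, with 17 of 22 positive, beside 0.02 over all probe sets. Irf1, a factor that interferon gamma induces, was the only one with an unadjusted p under 0.05. It read 161.5, 128.8 and 176.0 on the arrays labelled null, against 153.4, 79.9 and 79.6 in hypoxic wild type, and was higher in 3 of 3 pairs (log2 0.61, SE 0.26, limma adjusted p = 0.999). The lowest null value fell below the highest wild-type one, so the groups overlapped. Irf7 (104669_at) and Ifitm3 did not overlap. Irf7 read 60.1, 92.6 and 73.9 on the arrays labelled null, against 46.8, 55.7 and 57.9 in hypoxic wild type (0.45), and Ifitm3 was at 0.20 (interval -0.13 to 0.54). Over all classes 3 members did not overlap and were higher and 1 was lower, against 4.04% and 2.74% of all probe sets. Ifi47 (0.38), Isg15 (0.36) and Irf3 (-0.23) overlapped. In the list of other interferon-induced genes 0 of 18 were called with or without the block, and the median was -0.01.

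The comparison of cells labelled null with normoxic adeno-treated cells joins genotype and hypoxia, and any difference in adeno treatment, which cannot be told apart. It shares the normoxic adeno-treated arrays with the comparison of hypoxic wild-type cells. Without the block 0 of 51 members were called in limma, against 0.349% of all probe sets called higher and 0.0805% lower, and at an unadjusted p under 0.05 there were 1 higher and 1 lower, against 5.18% and 4.56%. With it Irf3 fell, as 1 of 51, against 2.83% of all probe sets called lower and 2.95% higher. Irf3 read 123.5, 122.0 and 100.8 on the arrays labelled null, against 236.0 and 198.9 in normoxic adeno-treated cells (log2 -0.84, limma adjusted p = 0.0385 with the block, and -0.89, SE 0.20, adjusted p = 0.136 without it). The null arrays also lay below both normoxic untreated arrays, at 166.5 and 199.1. The call was lost when any 1 array of the comparison was left out of the fit with the block (adjusted p 0.0809 to 0.185), with no filter (0.0665) and without the number 3 arrays (0.0795).

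Ifi30, which encodes a lysosomal thiol reductase that opens proteins for class II loading, lay at the other end. It read 205.1, 314.1 and 190.1 on the arrays labelled null, against 130.4 and 170.6 in normoxic adeno-treated cells (log2 0.61, limma adjusted p = 0.484, and 0.76 with 0.0530 with the block). The groups did not overlap. H2-Ab1, at 50.1, 33.6 and 35.6 on the arrays labelled null against 27.8 and 27.7 in normoxic adeno-treated cells, also did not overlap (log2 0.44, limma adjusted p = 0.648), nor did H2-DMb2 (0.28). Stat5b (0.70), Tap1 (162278_r_at, 0.53), Ifitm10 (0.37), Gbp7 (0.33), H2-T18 (0.32) and H2-K1 (97125_f_at, 0.17) were the others on the higher side, and Ifi47 (-0.30) and H2-Ke6 (102991_s_at, -0.36), a gene of the H2 region outside both classes, stood with Irf3 on the lower side. In all 9 did not overlap and were higher and 3 were lower, against 13.8% and 12.1% of all probe sets. The medians were 0.01 for class I, 0.29 for class II and 0.12 for interferon genes, beside 0.01 for all. The class II median rests on 4 probe sets. Of these, Cd74 had passed the filter only through the arrays labelled null and H2-Ab1 only through the hypoxic wild-type ones. That median is thus a description and no support. The largest class I change was 0.88, on the H2-K1 probe set 97700_at, whose groups overlapped.

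The other interferon-induced genes had a median of -0.13 here, with 12 of 18 negative, and 0 were called. With the block the median was -0.04 and 2 were called, both lower, against 2.83% of all probe sets called lower. Called with the block were Trim25, at 138.1, 76.7 and 121.5 on the arrays labelled null against 281.1 and 237.9 in normoxic adeno-treated cells (log2 -1.21, limma adjusted p = 0.0125), and Igtp, at 75.7, 40.3 and 94.3 on the arrays labelled null against 152.7 and 114.8 in normoxic adeno-treated cells (-1.15, 0.0321). Irgm1 was 60.4, 37.8 and 51.2 on the arrays labelled null, against 123.1 and 106.3 in normoxic adeno-treated cells (-1.15, limma adjusted p = 0.303, and 0.0530 with the block). All 3 were lower with no overlap, in the same direction as in wild type, and both comparisons use the same normoxic arrays. Of the peptide supply list, the lysosomal protease Ctsb (94831_at) was called higher with the block (0.51, limma adjusted p = 0.0290), as 1 of 15, against 2.95% of all probe sets. The macrophage marker Cd68 (103016_s_at) also rose with the block (log2 1.54, limma adjusted p = 0.00501), at 243.3, 220.1 and 254.1 on the arrays labelled null against 104.9 and 65.9 in normoxic adeno-treated cells, as 1 of 7 macrophage probe sets tested. The macrophage list had a median of -0.03, with 3 positive and 4 negative (median 0.28 with the block), and Cd14 lay on the other side, at 300.2, 321.4 and 198.7 on the arrays labelled null against 518.0 and 350.4 in normoxic adeno-treated cells. With the block 5 of 13 hepatocyte markers fell, against 2.83% of all probe sets called lower. The part of these cells in the values was not tested.

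The last comparison sets normoxic adeno-treated against untreated cells, 2 arrays each, whose genotype the labels do not give. The 4 tested class II genes all lay higher in adeno-treated cells. H2-DMb2 read 72.2 and 86.3 in adeno-treated cells, against 20.4 and 52.3 in untreated cells (log2 1.15, SE 0.40), and H2-Eb1 108.8 and 143.0 in adeno-treated cells, against 78.9 and 47.3 in untreated cells (0.97, SE 0.31). Cd74 read 46.8 and 39.1 in adeno-treated cells, against 28.1 and 20.2 in untreated cells (0.73, SE 0.38), and H2-Ab1 27.8 and 27.7 in adeno-treated cells, against 16.5 and 16.3 in untreated cells (0.62, SE 0.29). The 4 had a median of 0.85, beside -0.01 over all probe sets, and none was called (smallest limma adjusted p = 0.502, and 0.109 with the block). Of the 8 class II probe sets too dim for the filter, H2-Aa lay higher, at 14.9 and 30.6 in adeno-treated cells, against 10.3 and 12.9 in untreated cells, as did H2-Eb2, at 11.2 and 17.4 in adeno-treated cells, against 4.3 and 2.7 in untreated cells. H2-Oa lay lower, at 23.2 and 14.4 in adeno-treated cells, against 42.2 and 28.6 in untreated cells, and the other 5 overlapped. With no filter the class II median was 0.33. Ciita lay on the other side, at 33.0 and 32.8 in adeno-treated cells, against 47.6 and 52.5 in untreated cells (-0.54, interval -1.28 to 0.20).

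Over all classes 37 of 51 members were positive, and 0 were called in limma with or without the block, against 0.0% of all probe sets without the block and 0.107% higher and 0.148% lower with it. At an unadjusted p under 0.05, without the block, 6 members were higher and 0 lower, against 4.15% and 4.17% of all probe sets. With 2 arrays in each group 26 members did not overlap and were higher and 9 were lower, against 24.6% and 24.3%. The class I median was 0.21, with 17 of 24 positive, and the interferon median was 0.21, with 16 of 22 positive.

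**Figure D4:**
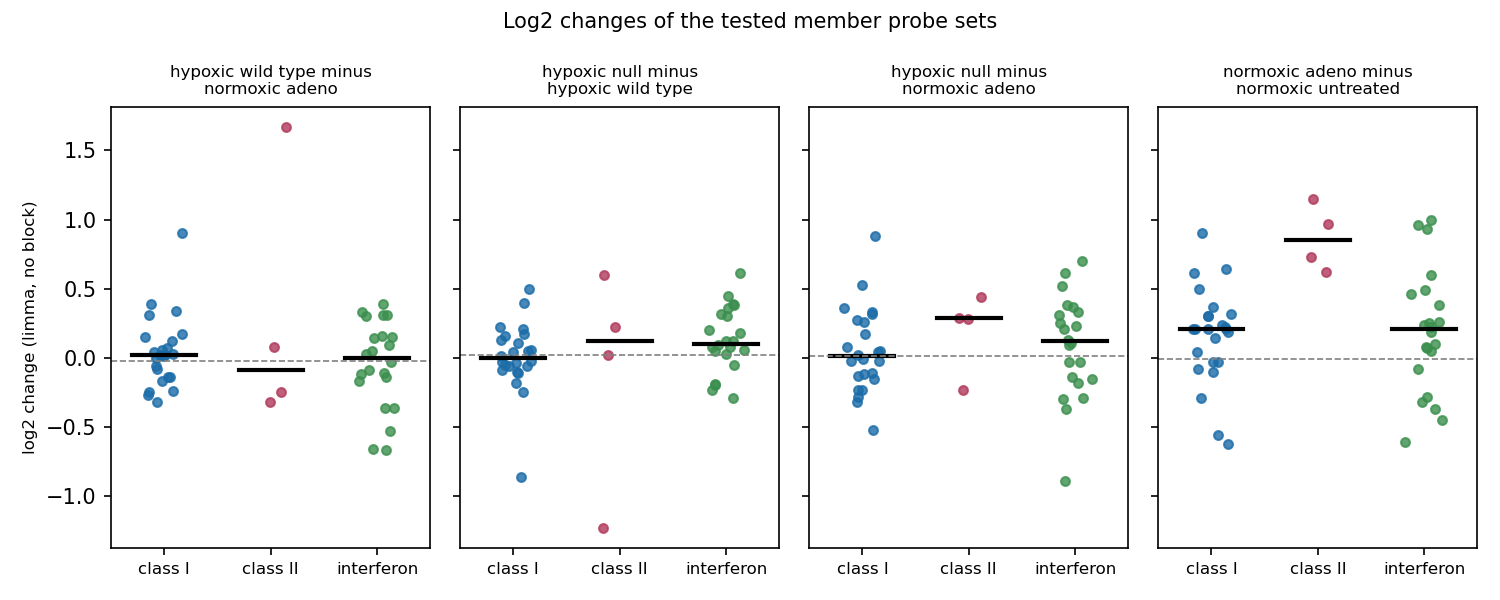
Log2 change (limma, no block) of each tested class I, class II and interferon probe set in the 4 comparisons; points are probe sets, black bars class medians and the dashed grey line the median of all 7453 probe sets, and the 1 tested probe set of another H2 gene is left out. H2-Ab1 stands alone at 1.67 in the first panel and at -1.23 in the second, and the class II points of the last panel all lie above 0.62 or at it.

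Among class I genes, H2-Q4, a class I gene of the Q region, read 1657.7 and 1644.2 in adeno-treated cells, against 1067.2 and 733.5 in untreated cells (log2 0.90, SE 0.31, limma adjusted p = 0.511). H2-D4 was at 0.64, Tap1 at 0.50 (103035_at) and Tapbp at 0.61 (102689_at), each with no overlap. Second probe sets of the same genes lay on the other side, also with no overlap: Tap1 at -0.62 (162278_r_at), Tapbp at -0.10 (100154_at) and H2-D1 at -0.29 (97541_f_at), beside 0.37 and 0.22 on the other 2 probe sets of H2-D1. For B2m the change was -0.03 (interval -0.39 to 0.33).

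Among interferon genes, Ifi30 had the smallest p of all members and read 130.4 and 170.6 in adeno-treated cells, against 79.2 and 72.7 in untreated cells (log2 0.93, SE 0.29, limma adjusted p = 0.500, and 0.0738 with the block). Stat5b, which relays growth hormone signals in liver, read 55.0 and 51.4 in adeno-treated cells, against 24.1 and 24.4 in untreated cells (SE 0.37, interval 0.16 to 1.84). Stat5a (100422_i_at) was at 0.49. Irf7, the factor that amplifies type I interferon, was at 0.96 on 104669_at and at -0.28 on 162202_f_at, so no direction can be given for the gene. On the lower side were Irf9, the DNA-binding subunit of the interferon-stimulated complex ISGF3, at 140.7 and 122.5 in adeno-treated cells, against 221.3 and 186.8 in untreated cells (-0.61, SE 0.28), the RNA sensor Ifih1 at -0.45, Ifi47 at 140.2 and 139.9 in adeno-treated cells, against 172.0 and 194.3 in untreated cells (-0.37), and Gbp7 at -0.32. Isg15 overlapped (0.60, interval -0.57 to 1.77). In the other lists, Irgm1 read 123.1 and 106.3 in adeno-treated cells, against 207.2 and 200.4 in untreated cells (-0.81, SE 0.38), the receptor gene Ifnar2 was at -0.75 (101015_s_at) and -0.85 (101014_at) and the kinase gene Tyk2 at 0.96, with no overlap in any of them and 0 calls with or without the block.

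Across the 4 groups, the order of H2-Ab1 was hypoxic wild type, then labelled null, then normoxic adeno-treated, then normoxic untreated, and no 2 neighbouring groups overlapped. It had passed the filter only through the hypoxic wild-type arrays, so this order is a description and no support. Taken singly, these 3 steps showed no overlap in the same direction for 2.74%, 13.8% and 24.6% of all probe sets tested. Irgm1 had the order normoxic untreated, then normoxic adeno-treated, then both hypoxic groups, which overlapped each other. Ifi47 stood highest in normoxic untreated cells, next in normoxic adeno-treated cells and lowest in the hypoxic groups, which again overlapped. For Irf3 the 2 normoxic groups overlapped each other, as did the hypoxic ones, with each hypoxic array below each normoxic one.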

How the data were processed

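Per the labels, each of 10 samples of mouse hepatocyte RNA went on 1 array. The deposited values are intensities, 1 per probe set, on a linear scale; the authors' scaling is read from the values, since the trimmed mean between the 2nd and 98th percentiles was 199.9 on each array. Which software made them is not given in the labels or headers. Arrays have no read depth, and their small number limits the precision. Symbols come from the platform annotation (10855 probe sets with 1 symbol, 396 with several, 1237 with none), and all 91 members matched RefSeq.

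Here 66 control probe sets were removed, an offset of 4.7, the 10th percentile over the whole table, was added before log2, and probe sets below the 40th percentile of mean log2 were left out. limma 3.58.1 (R 4.3.3) was fitted to 4 group means over all 10 arrays, with an intensity trend and Benjamini-Hochberg adjustment over 7453 probe sets, and tested on simulated data. There were 4 comparisons. Sample numbers were taken to pair arrays: in 13 same-number pairs across groups the deviations from the group means correlated at 0.106 to 0.678, each over 0.1. Hypoxic arrays of different numbers correlated at -0.518 to -0.146. Deviations from a group mean cancel within the group, so positive same-number values by themselves push these values below zero. The negative values are therefore no added ground for the pairing. The arrays of each normoxic group mirror each other, so the same-number pairs between the normoxic groups give a single value. The numbers come from the labels, which do not say what they share.

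The members, pathway lists and marker lists were chosen with earlier results of these data known. Members are named where they passed the threshold with or without the block, were among the 4 largest rises or falls of their class with no overlap of arrays, or belong to a fixed set of well-known genes. Up to 4 genes of smallest p from the pathway lists are also named, and others were chosen after their values were seen. Alternatives changed the offset, the filter, the normalization, the variance prior, the block, the normoxic arrays and the arrays left out. Figures were drawn with matplotlib.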

Additional observations from a re-analysis of the deposited data

How the results depend on the processing

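The call of H2-Ab1 in hypoxic wild type against normoxic adeno-treated cells was the only one without the block, and it turned to 0 called members with no filter, with the filter at the 60th percentile (where H2-Ab1 was not tested), with quantile normalization and without the number 3 arrays. With the replicate block it was kept with no filter (limma adjusted p = 0.0441) and, with the filter in place, against all 4 normoxic arrays (0.00602), and lost without the number 3 arrays (0.0568). Leaving out each array in turn gave 0 called members, and 0 to 1 with the replicate block, where the 1 was H2-K1 and not H2-Ab1. The log2 change of H2-Ab1 stayed at 1.33 to 1.98 in all settings that tested it. In cells labelled null against normoxic adeno-treated cells the count of 0 became 1 with the replicate block (Irf3), 3 with the block against all 4 normoxic arrays (H2-Ke6, Ifi30 and Irf3), and 0 to 1 with the block and each array left out. The 1 was H2-K1 without normoxic adeno-treated array 1 and Ifi30 without null array 1. The replicate block changed no other call among members. In the other comparisons 0 members were called in every setting run. Of 835 alternative values for 44 named changes, 815 kept direction and side of the threshold, and 2 reversed, both with the replicate block and 1 array left out: Gbp7 at -0.01 in cells labelled null against normoxic adeno-treated cells, and Tapbp (100154_at) at 0.04 in adeno-treated against untreated cells. The cause was not tested. Of the 44 changes, only that of H2-Ab1 in hypoxic wild type against normoxic adeno-treated cells was called in the main fit. For the rest, keeping the side of the threshold meant staying uncalled, so the 815 is no measure of how firm they are. Settings that join the block with another change were chosen after seeing the data.

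Class medians moved as follows. In hypoxic wild type against normoxic adeno-treated cells, class II was at 0.08 without the number 3 arrays, 0.08 with the replicate block as well, 0.35 against all 4 normoxic arrays and 0.41 with the replicate block too; leaving out each array gave -0.20 to 0.08, and -0.22 to 0.15 with the replicate block. Interferon genes ranged over -0.16 to 0.06, and -0.10 to 0.12 with the block. In cells labelled null against hypoxic wild type, leaving out each array gave -0.03 to 0.34 for class II (-0.05 to 0.37 with the block) and 0.02 to 0.25 for interferon genes (0.07 to 0.28 with the block). Against normoxic adeno-treated cells, class II of the cells labelled null was at 0.70 against all 4 normoxic arrays, and 0.69 with the replicate block; interferon genes ranged over -0.07 to 0.24, and 0.00 to 0.27 with the block. In adeno-treated against untreated cells, class II was at 0.68 with 4 times the offset and 0.33 with no filter, with and without the replicate block, and 0.62 to 0.89 with each array left out (0.57 to 0.91 with the block); interferon genes were at 0.05 with no filter, with and without the block. No class II member passed the filter at the 60th percentile, so it gave no class II median. With the main filter the class II medians include H2-Ab1 and Cd74, each of which passed it only through a hypoxic group. In comparisons with a hypoxic group they are therefore descriptions and no support. Groups of 2 arrays, probe sets shared among H2 genes and dim class II signals limit what can be called: over the 51 tested members, the 95% interval excluded a 2-fold change for 39 in hypoxic wild type against normoxic adeno-treated cells, 41 in cells labelled null against hypoxic wild type and 28 in adeno-treated against untreated cells. Where a lone array remained, it was taken to vary like the other groups.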

Other observations

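Gbp2 and 1 of the 3 Ifi204 probe sets, genes of the guanylate-binding and IFI200 families named after their values were seen, ran with the sample number on the hypoxic arrays. Gbp2 read 47.7 (labelled null) and 42.4 (hypoxic wild type) on the number 1 arrays, 7.7 and 10.5 on the number 2 arrays, and 2.7 and 6.6 on the number 3 arrays. The normoxic adeno-treated arrays 1 and 2 read 31.9 and 8.1, against 27.6 and 29.7 on the untreated ones. Ifi204 (98465_f_at) read 58.1 and 74.0 on the number 1, 25.9 and 40.4 on the number 2, and 8.7 and 28.3 on the number 3 hypoxic arrays. Both probe sets were too dim to test. Ifi202b of the IFI200 family, also too dim, read 34.4 (labelled null) and 56.8 (hypoxic wild type) on the number 1 arrays. On the other hypoxic arrays it read 29.3 or below. Gbp3, Ifi207 and the other 2 Ifi204 probe sets did not run with the number. Both number 1 hypoxic arrays lay above all other hypoxic arrays for Gbp2, Ifi204 (98465_f_at) and Ifi202b. That held for 4 of the 40 members too dim to test and 2 of the 51 tested. Over all probe sets tested it held for 1347 of 7453, so it was less frequent among tested members. Over the 51 tested members, 11 had both number 1 hypoxic arrays below all other hypoxic arrays (beside 1190 of 7453 probe sets tested). Another pattern, both number 2 arrays above, held for 11 (beside 846 of 7453).

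Another 15 probe sets carry several symbols of which at least 1 is a member symbol, and so were not members. Of them 8 were tested and 0 were called in limma with or without the block. The largest genotype difference among them was on a probe set for Gbp4 and Gbp8, guanylate-binding proteins of the interferon response, which read 58.7, 96.7 and 101.6 on the arrays labelled null, against 32.0, 60.8 and 11.6 in hypoxic wild type (log2 1.37, limma adjusted p = 0.999, and 0.271 with the block). The lowest null value lay below the highest wild-type one.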
